A study of Mus musculus with 16 samples.

Results

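The genes described here are 35 immediate early and AP-1 response genes, chosen by symbol from the 48440 gene rows of the deposited matrices, and each symbol matched 1 row. Their raw unique molecular identifier (UMI) counts were summed per library and per cell type, in stromal and immune cells of all 5 groups, so that the groups could be set side by side cell type by cell type. The study sequenced single cells from inguinal lymph nodes of 8-week-old C57BL/6 mice after enrichment for podoplanin (PDPN), a surface protein of lymphatic endothelial and fibroblastic reticular cells. Mice received 500000 MC38 colon carcinoma cells under the skin of the right flank, either live or fixed, and at day 12 the draining node and the contralateral non-draining node were taken separately. The 16 libraries fall into 5 groups: naive nodes (n = 4, replicates A to D), live tumor draining nodes, live tumor non-draining nodes, fixed tumor draining nodes and fixed tumor non-draining nodes (n = 3 each, replicates A to C). The study describes digestion with collagenase P, dispase and DNase I at 37 °C. It gives a range of times and no time for each node, and its methods do not describe the naive mice. The study's methods give 3 mice with live and 3 with fixed tumor cells, and both nodes were collected. The labels do not say how many mice gave each library or which libraries share a mouse. Draining and non-draining nodes were therefore not paired in the main tests, and p-values measure the spread between these libraries.

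Immediate early genes are transcribed within minutes of a stimulus without new protein synthesis, mostly through MAP kinases acting on factors that already sit at their promoters. FOS and JUN family proteins pair to form AP-1. EGR, ATF3 and NR4A proteins are further transcription factors of the same early wave, and DUSP, ZFP36, BTG and SOCS proteins shut the response down. The same genes are known to be switched on by warm enzymatic digestion of tissue, in stromal and immune cells, so the level in a dissociated cell can come from the node and from the digestion, which cannot be told apart in these libraries.

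The matrices held 68741 barcodes, of which 50386 were kept for having 200 to 6000 genes and no more than 30% mitochondrial UMIs, with 1065 to 5132 cells and 7486725 to 48945961 UMIs per library. Any pair of libraries shared at most 10 barcodes. Cell types were gated on marker genes and are named "-like", and 74 of 81 markers were highest in their own gated type. Lymphatic endothelial (LEC)-like cells, gated on markers such as Prox1 and Lyve1, numbered 265 to 931 per library. Their median UMIs per cell ran from 9117 to 10319 in live draining libraries and from 6631 to 8208 in live non-draining libraries, and mitochondrial UMIs were 2.72 to 3.63% and 2.91 to 3.71%. Results were therefore also computed with every cell thinned to 2000 UMIs. Before filtering, 20.0 to 27.2% of the barcodes of live draining libraries were over the mitochondrial limit, against 12.3 to 13.9% in live non-draining, 9.03 to 13.8% in naive, 16.8 to 19.2% in fixed draining and up to 14.5% in fixed non-draining libraries, and the part of this loss in the results was not tested.

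In LEC-like cells of nodes draining a live tumor, most of the immediate early genes were lower than in the contralateral nodes of the same treatment. Of 33 members with enough UMIs to test, 26 fell, 2 rose and 5 were not called at an edgeR adjusted p under 0.05, with a median log2 fold change of -0.77 against -0.01 over all genes tested. Over all genes, 13.9% were called lower and 15.9% higher in this comparison. The draining and non-draining libraries did not overlap for 28 members, 26 below and 2 above, where 20.1% of all genes were below without overlap and 21% above. Fosl1 and Egr3 had 12 and 78 UMIs over all 16 libraries and were not tested. With cells thinned to 2000 UMIs 24 members fell and 2 rose of 32 tested.

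Among the FOS proteins, which need a JUN partner to bind DNA, Fos (chr12:85473890-85477273, plus strand, mm10, position from the GENCODE annotation as for the genes below) had levels of 732, 833 and 874 CPM (UMIs per 1000000 of the cell type's scaled library total) in the live draining libraries and 2155, 2225 and 2386 in the live non-draining libraries. Naive nodes held 1322, 1475, 1443 and 1396. Every live draining library was therefore below, and every live non-draining library above, the naive range, and Fos fell 2.77-fold between them (log2 fold change -1.47 ± 0.07 SE, edgeR adjusted p = 5.1e-13). Against naive nodes the log2 fold change was -0.79 (adjusted p = 2.7e-09) for the live draining and 0.68 (adjusted p = 6.2e-07) for the live non-draining nodes, comparisons that share the naive libraries. Fosb, a close relative of Fos, was at 192, 213 and 189 CPM in draining and 437, 610 and 525 in non-draining libraries of live tumors, with 225 to 250 in naive nodes. Its log2 fold change in the live comparison was -1.39 ± 0.10 (edgeR adjusted p = 2.4e-10), but live draining nodes were not called against naive nodes (-0.24, adjusted p = 0.064). Fosl2 fell less (-0.38).

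The JUN genes moved the same way, by less than Fos. Jun (chr4:95049034-95052222, minus strand), the main partner of FOS, had 765, 835 and 915 CPM in live draining, 1639, 1555 and 1719 in the contralateral nodes and 1263, 1203, 1189 and 1218 in naive libraries. The 3 groups did not overlap, and the live log2 fold change was -0.97 ± 0.07 (edgeR adjusted p = 7.8e-11). Junb, which competes with JUN for FOS, had 449, 504 and 483 CPM in live draining and 837, 868 and 879 in live non-draining libraries. Naive levels of Junb, 489, 544, 525 and 532, overlapped the live draining range and lay below the live non-draining range. Its live log2 fold change was -0.85 ± 0.07 (edgeR adjusted p = 3.9e-10), with 0.72 against naive in the non-draining nodes (adjusted p = 6e-08) and -0.12 in the draining nodes (adjusted p = 0.13). Jund fell by 0.94 on the log2 scale.

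**Figure D1:**
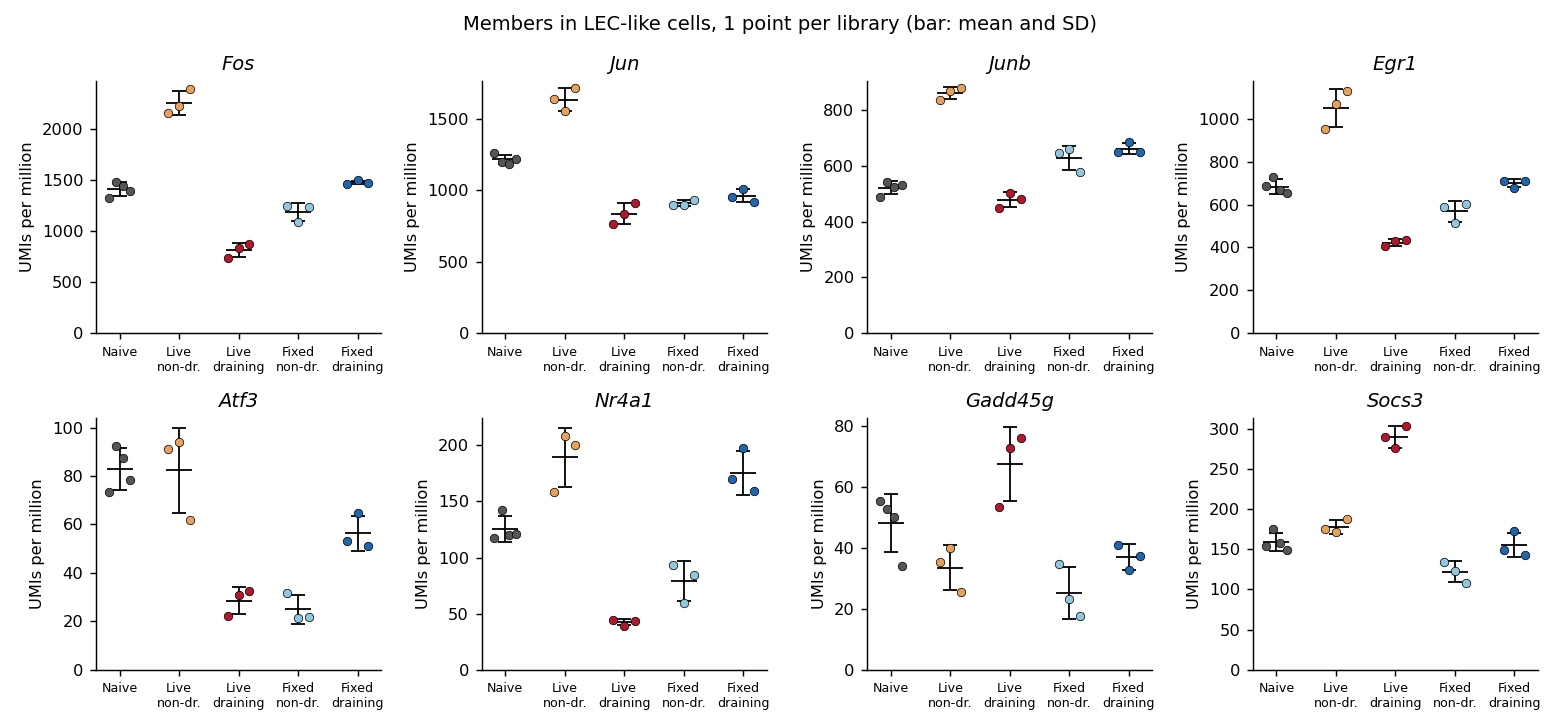
Levels of 8 members in LEC-like cells, in CPM on the y axes, for the 5 groups on the x axes, with a point per library and the mean and SD as bars. Fos, Jun, Junb, Egr1 and Nr4a1 have their highest means in live tumor non-draining nodes, while Gadd45g and Socs3 have theirs in live tumor draining nodes.

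Of the zinc finger and bZIP factors of the early wave, Egr1 (chr18:34859823-34864984, plus strand), a factor induced by growth factors and stress, had 405, 429 and 435 CPM in live draining and 954, 1068 and 1132 in live non-draining libraries. Naive libraries held 687, 730, 669 and 653, between the ranges of both tumor groups, and the live log2 fold change was -1.31 ± 0.07 (edgeR adjusted p = 1.7e-12). Egr2 fell by 1.70. Atf3 (chr1:191170296-191218039, minus strand), a repressor induced by stress, showed another order of the groups. It had 22.3, 31.0 and 32.4 CPM in live draining, 91.2, 93.8 and 62.0 on the live non-draining side and 73.4, 92.4, 87.5 and 78.3 in naive libraries. Live non-draining nodes overlapped the naive range (0.01, edgeR adjusted p = 0.99), and live draining nodes lay below both (live log2 fold change -1.55 ± 0.15, adjusted p = 2.1e-08).

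The NR4A genes encode orphan nuclear receptors that are made early after a stimulus and need no known ligand. Nr4a1 (chr15:101254269-101274795, plus strand) had 44.4, 39.3 and 43.1 CPM in live draining, 159, 208 and 200 in the contralateral nodes and 117, 142, 120 and 121 in naive libraries. None of the 3 ranges overlapped, and the live log2 fold change of -2.14 ± 0.13 (edgeR adjusted p = 3.5e-12) was among the largest of the members. Nr4a2 ran from 4.85 to 6.30 in draining and from 16.6 to 46.8 in non-draining libraries (-2.42 ± 0.30, adjusted p = 8.1e-07). Nr4a3, at -1.72, was not called (adjusted p = 0.051).

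Several feedback genes fell too, but not Dusp2, Dusp6 or Socs3. Dusp1, a phosphatase that switches off MAP kinases, had 162, 178 and 212 CPM in live draining, 447, 485 and 522 on the live non-draining side and 247, 237, 265 and 267 in naive libraries (live log2 fold change -1.40 ± 0.09, edgeR adjusted p = 2.9e-11). Zfp36, which marks AU-rich messages for decay, had 165, 182 and 202 in live draining, 558, 463 and 506 in the contralateral nodes and 262, 258, 302 and 265 in naive libraries (-1.48 ± 0.09, adjusted p = 2.5e-12). For both genes the live draining libraries were below, and the live non-draining libraries above, all naive libraries. Ier2, a small early gene product, differed: live draining libraries (177, 197 and 191) lay above naive libraries (149, 156, 168 and 161) and below live non-draining libraries (247, 260 and 267). Its live log2 fold change was -0.45 ± 0.06 (edgeR adjusted p = 5.8e-06), and live draining nodes rose by 0.25 against naive (adjusted p = 0.0017). The antiproliferative gene Btg2 fell by 1.36, Rhob, a small GTPase, by 1.29, Csrnp1 by 0.79, Dusp5 by 0.77 with overlapping libraries, Apold1 by 0.74, Zfp36l1 by 0.71 and the growth arrest gene Gadd45b by 0.71, all on the log2 scale. Smaller falls were those of Myc (-0.58), Cyr61 (-0.57), the eIF2α phosphatase subunit gene Ppp1r15a (-0.54), Ier5 (-0.35) and Btg1 (-0.32). The log2 fold changes of Maff (-0.14), Ier3 (0.01), Dusp2 (0.01) and Dusp6 (0.00) were not called.

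A pair of members ran the other way in LEC-like cells. Socs3 (chr11:117966079-117970047, minus strand), which inhibits JAK-STAT signaling downstream of IL-6 family cytokines, had 290, 276 and 304 CPM in live draining, 175, 171 and 187 on the live non-draining side and 154, 175, 157 and 149 in naive libraries. Live draining nodes stood above every other library, with a live log2 fold change of 0.71 ± 0.08 (edgeR adjusted p = 1.5e-07) and 0.87 against naive nodes (adjusted p = 5.6e-10). Gadd45g (chr13:51846678-51848468, plus strand), a stress gene that binds MAP3K4, had 53.5, 72.7 and 76.1 in live draining and 35.2, 39.9 and 25.4 in live non-draining libraries (0.99 ± 0.18, adjusted p = 0.00017). Its naive levels of 55.5, 52.8, 50.2 and 34.1 overlapped the live draining range.

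The proximal promoters of these genes are known sites of cAMP response element (CRE) and serum response control. In 300-base RefSeq promoter windows on GRCm38.p6 (250 bases before to 50 after the start), matched for 30 of the 35 members, the full CRE TGACGTCA on either strand stood in 4 members (13.3%) against 2.03% of 27025 genes. The windows of Egr1, Egr3, Fosl1, Ier2 and Myc were not used here. The AP-1 motif TGANTCA stood in Csrnp1 and Zfp36l1 (6.67% of members, 8.97% of genes), the EGR motif GCGTGGGCG in Maff (3.33% and 0.707%), and the CArG box of serum response factor in Dusp5, Egr2 and Zfp36 (10% and 1.81%). Of the 4 genes with the full CRE, 3 fell in LEC-like cells of live draining nodes against non-draining nodes, and Maff was not called. Among all 33 members tested there 26 fell, and a link between the CRE and the fall was not tested. The sequences around the CRE of the 4 genes have the motif in capitals. They lie at chr17:26508578-26508645 (minus strand, Dusp1), chr7:45526269-45526310 (minus, Ppp1r15a), chr1:134079284-134079351 (minus, Btg2) and chr15:79347461-79347519 (plus, Maff), upstream of each start.
Dusp1: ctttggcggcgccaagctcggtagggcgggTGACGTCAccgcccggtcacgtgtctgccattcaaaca
Ppp1r15a: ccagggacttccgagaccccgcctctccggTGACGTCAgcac
Btg2: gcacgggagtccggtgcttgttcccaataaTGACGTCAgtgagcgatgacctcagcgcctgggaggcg
Maff: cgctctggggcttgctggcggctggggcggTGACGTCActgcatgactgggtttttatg
A motif match describes the letters in these windows and not the binding of a factor.

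Set against naive nodes, the members parted by side of the animal as well as by treatment. In LEC-like cells of live draining nodes 18 members fell and 4 rose against naive (12.9% and 15.7% of all genes), with a median log2 fold change of -0.34. In live non-draining nodes 20 rose and 0 fell (0.952% and 0.407% of all genes, edgeR), with a median of 0.40, and 1 member was past an unadjusted p of 0.05 in the lower direction. The 20 were Fos, Fosb, Fosl2, Jun, Junb, Jund, Egr1, Nr4a1, Nr4a2, Ier2, Ier3, Ier5, Btg2, Dusp1, Zfp36, Zfp36l1, Cyr61, Csrnp1, Ppp1r15a and Apold1. Of these, Fosb, Fosl2, Junb, Cyr61, Csrnp1, Ppp1r15a and Ier5 were not called in live draining against naive nodes, and Ier2 and Ier3 were higher there. The 35 members together summed to 9077 to 9218 CPM in naive, 6667 to 7453 in live draining and 12725 to 13702 in live non-draining LEC-like cells. These ranges did not overlap. All of these comparisons share the 4 naive libraries, and the live comparison shares the tumor libraries with them.

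In LEC-like cells as a whole, nodes of mice given fixed tumor cells differed less from naive nodes in the summed level. The members summed to 9619 to 10025 CPM in fixed draining and 8135 to 8644 in fixed non-draining LEC-like cells, on either side of the naive range. In fixed draining nodes 11 members rose and 2 fell against naive (1.07% and 1.3% of all genes), the 2 being Jun and Atf3. In fixed non-draining nodes 7 rose and 9 fell (2.17% and 2.55%). Junb, Dusp1, Zfp36 and Ier2 were higher than naive on both sides of the fixed group, with Dusp1 at 408, 428 and 378 CPM in draining and 362, 296 and 379 in non-draining libraries, all above the highest naive value of 267. Jun was below every naive library in both, at 954, 1012 and 923 in fixed draining and 899, 896 and 935 in fixed non-draining nodes. Most fixed libraries carried a library code ending that only replicate A of the naive libraries shared. The meaning of this code is not stated, and its part in these comparisons was not tested.

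Between draining and non-draining nodes, fixed tumor cells gave a smaller change in the opposite direction in LEC-like cells as a whole. In LEC-like cells 10 members rose and 0 fell, with a median log2 fold change of 0.28, where edgeR called 1.12% of all genes higher and 0.719% lower. Libraries did not overlap for 16 members above and 2 below, against 9.65% and 8.83% of all genes. At an unadjusted p under 0.05 the members numbered 21 higher and 3 lower, and DESeq2 called 11 higher and 0 lower. Nr4a1 led, with 170, 197 and 159 CPM in fixed draining and 93.5, 59.4 and 84.1 in fixed non-draining libraries (log2 fold change 1.14 ± 0.12, edgeR adjusted p = 5.8e-06). Atf3 followed, at 53.2, 64.6 and 51.1 against 31.9, 21.5 and 21.7 (1.11 ± 0.17, adjusted p = 0.0007). Neither gene overlapped between the groups, but the fixed draining libraries of Atf3 were still below all naive libraries. Apold1 (0.78), Csrnp1 (0.73), Maff (0.67) and Cyr61 (0.52) came next, ahead of Socs3 (0.33), Fos and Fosl2 (0.31 each) and Egr1 (0.30). Fos was at 1463, 1496 and 1470 CPM in fixed draining and 1247, 1088 and 1234 in fixed non-draining libraries (adjusted p = 0.023). The count of 10 was 6 without fixed draining replicate B and 6 without fixed non-draining replicate B, and 3 when every cell was thinned to 2000 UMIs. The members' median fixed log2 fold change was 0.31 in ceiling, 0.11 in medullary, -0.01 in floor and -0.97 in cortical LEC-like cells. The cortical value rests on 2 fixed non-draining libraries. Of the cells kept for thinning, ceiling LEC-like cells numbered 885 beside 2176 LEC-like cells in fixed draining libraries. In fixed non-draining libraries they numbered 326 beside 990. The part of the subset mix in the rise was not tested.

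The difference between the live and the fixed comparison was tested directly. In LEC-like cells 27 of 33 members had a lower draining effect with live than with fixed tumor cells and 1, Socs3, a higher one (log2 difference 0.38, edgeR adjusted p = 0.022), with a median of -1.05, where 8.32% of all genes were lower and 9.93% higher. The largest differences were those of Nr4a2 (-3.30), Nr4a1 (-3.28 ± 0.17, adjusted p = 6.7e-12) and Atf3 (-2.67 ± 0.23, adjusted p = 7.7e-09). Fos differed by -1.78 ± 0.10 (adjusted p = 1.8e-11) and Egr1 by -1.61 (adjusted p = 5.9e-11).

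**Figure D2:**
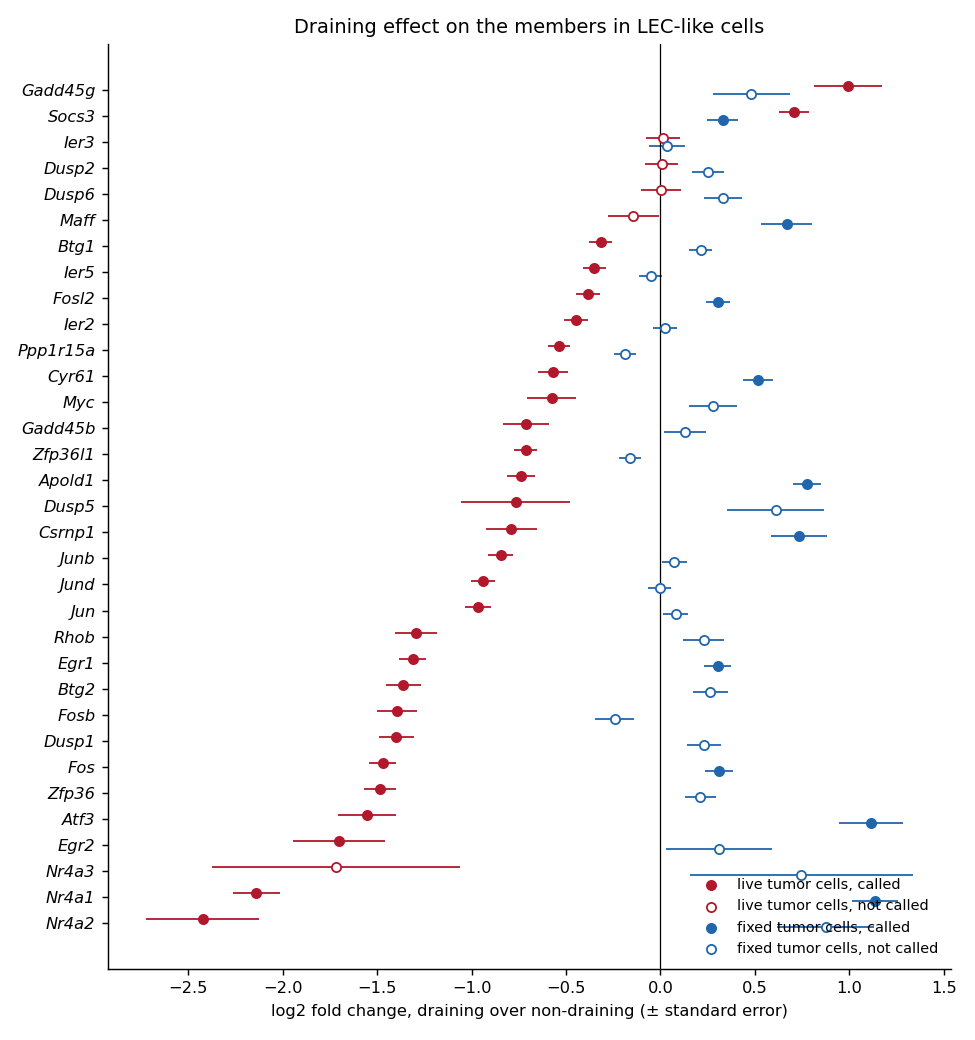
Log2 fold change of draining over non-draining nodes in LEC-like cells on the x axis for the 33 tested members on the y axis, live and fixed tumor cells in separate colours, with SE bars and filled points for calls at an edgeR adjusted p under 0.05. Most live points lie left of 0, with 26 called lower, and the called fixed points, 10 in number, lie right of 0.

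The fall was present in sinus-lining subsets of the LEC-like cells, which were gated on their own markers. Floor LEC-like cells had 17 members lower and 2 higher of 29 tested (5.96% and 8.32% of all genes), and Fos fell by 2.18 on the log2 scale, with 445, 396 and 318 CPM in draining and 1752, 1429 and 2108 in non-draining libraries. Their members summed to 5021 to 5322 CPM in live draining and 9032 to 11338 in live non-draining libraries, and those of naive nodes to 6291 to 9092. Both fixed groups overlapped the live draining one in this subset, at 4879 to 6257 CPM in draining and 5080 to 6189 in non-draining libraries, with 9 and 8 members lower than naive (0.505% and 0.515% of all genes). In ceiling LEC-like cells 26 fell and 2 rose of 33 (7.63% and 8.4%), and Fos changed by -1.41, with Socs3 (0.45) and Ier3 (0.51), an early gene tied to cell survival, the 2 that rose. Medullary LEC-like cells had 8 lower and 3 higher of 30 (1.88% and 3.82%), the 3 being Gadd45g (1.68), Socs3 (1.67) and Dusp2 (0.81). In cortical LEC-like cells edgeR called 0 of 20 members in the live comparison, where 0.0627% of genes were called lower and 0.251% higher. At an unadjusted p under 0.05 there were 4 members, 1 lower and 3 higher. There the fixed comparison gave 3 lower members (0.251% of genes), Fosb (-4.05), Junb (-2.38) and Egr1 (-2.37), from 2 fixed non-draining libraries.

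Fibroblastic-like cells, gated on collagen and PDGF receptor genes, showed the same direction in the live comparison. There 20 members fell and 1 rose of 33 tested, with 12 not called, against 12.4% of all genes lower and 14.2% higher. Fosb had 125, 104 and 147 CPM in live draining and 363, 473 and 446 in live non-draining libraries (log2 fold change -1.77 ± 0.11, edgeR adjusted p = 2.9e-11). Nr4a1 had 52.5, 39.5 and 58.4 against 141, 198 and 141 (-1.66 ± 0.13, adjusted p = 9.4e-10). Atf3 had 20.8, 17.9 and 16.7 against 50.0, 68.8 and 60.6 (-1.65 ± 0.20, adjusted p = 1.5e-06). None of these genes overlapped between the sides, and each live draining value was also below the lowest naive value, which was 221 for Fosb, 111 for Nr4a1 and 49.6 for Atf3. Fos had 355, 297 and 417 CPM in live draining, 797, 1050 and 1019 in the contralateral nodes and 587 to 686 in naive libraries (-1.42 ± 0.11, adjusted p = 1.6e-09). Nr4a3 (-1.59) and Zfp36 (-1.34) complete the 6 largest falls.

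Maff, a small MAF protein that pairs with other bZIP factors, was the 1 member that rose in fibroblastic-like cells, from 11.0, 11.1 and 11.7 CPM in live non-draining to 17.3, 15.7 and 16.4 in live draining libraries (0.55 ± 0.18, edgeR adjusted p = 0.024). Gadd45g and Socs3, which rose in LEC-like cells, did not rise here. Gadd45g fell (-0.47 ± 0.13, adjusted p = 0.011), and Socs3 had 115, 103 and 113 CPM in draining and 94.3, 126 and 102 in non-draining libraries (0.06, adjusted p = 0.7). Summed over the members, fibroblastic-like cells held 3986 to 4683 CPM in live draining, 5764 to 6237 in naive and 7077 to 8847 in live non-draining libraries, again without overlap. Against naive nodes 17 members fell and 6 rose in live draining nodes (17.7% and 19.6% of all genes), and 12 rose and 0 fell in live non-draining nodes (0.869% and 0.353%, edgeR, with 0 lower also at an unadjusted p under 0.05). Fixed draining nodes had 4 higher and 1 lower (4.13% and 3.98%) and fixed non-draining nodes 10 higher and 1 lower (1.28% and 0.862%).

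With fixed tumor cells 1 member fell in fibroblastic-like cells and edgeR called 0 higher, where 0.0679% of all genes were lower and 0.0204% higher. At an unadjusted p under 0.05 there were 14 lower and 4 higher, and DESeq2 called 1 lower and 0 higher. The 1 called was Ier2, at 73.7, 99.1 and 88.5 CPM in fixed draining and 140, 140 and 236 in fixed non-draining libraries (-0.92 ± 0.17, adjusted p = 0.027). The live effect was lower than the fixed effect for 13 members (4.21% of all genes), led by Atf3 (-2.28), Nr4a1 (-1.75), Fosb (-1.31), Zfp36 (-1.30), Dusp1 (-1.24) and Fos (-1.17), and higher for 1 (4.84%), Ier3 (0.81 ± 0.22, adjusted p = 0.019). Among fibroblastic subsets in the live comparison, T-zone reticular (TRC)-like cells had 17 lower of 26 tested (2.28% of genes), with Nr4a1 (-2.74), Fosb (-2.72) and Fos (-2.69) the largest. Marginal reticular (MRC)-like cells had 17 lower of 25 (6.18%), with Dusp6, a phosphatase of ERK, at -2.47, and medullary reticular (MedRC)-like cells 8 lower of 28 (2.05%), with Fos at -0.91. In MRC-like cells the live draining level was near that of naive nodes, with the members summing to 4908 to 6421 CPM in live draining, 5309 to 7350 in naive and 10066 to 16019 in live non-draining libraries. Against naive, 5 members were lower and 4 higher in their live draining nodes (8.76% and 10.3% of all genes; median log2 fold change 0.04), and 8 were higher in live non-draining nodes (0.189%; median 1.02). MedRC-like cells also overlapped naive nodes, at 6034 to 8361 CPM in live draining and 6688 to 8737 in naive libraries. Their median log2 fold change against naive was -0.11. TRC-like cells lay below naive, at 2461 to 2665 CPM in live draining and 3879 to 4460 in naive libraries. MedRC-like cells had 10 members higher than naive in fixed draining nodes (0.51%) and 9 on the fixed non-draining side (0.33%).

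**Figure D3:**
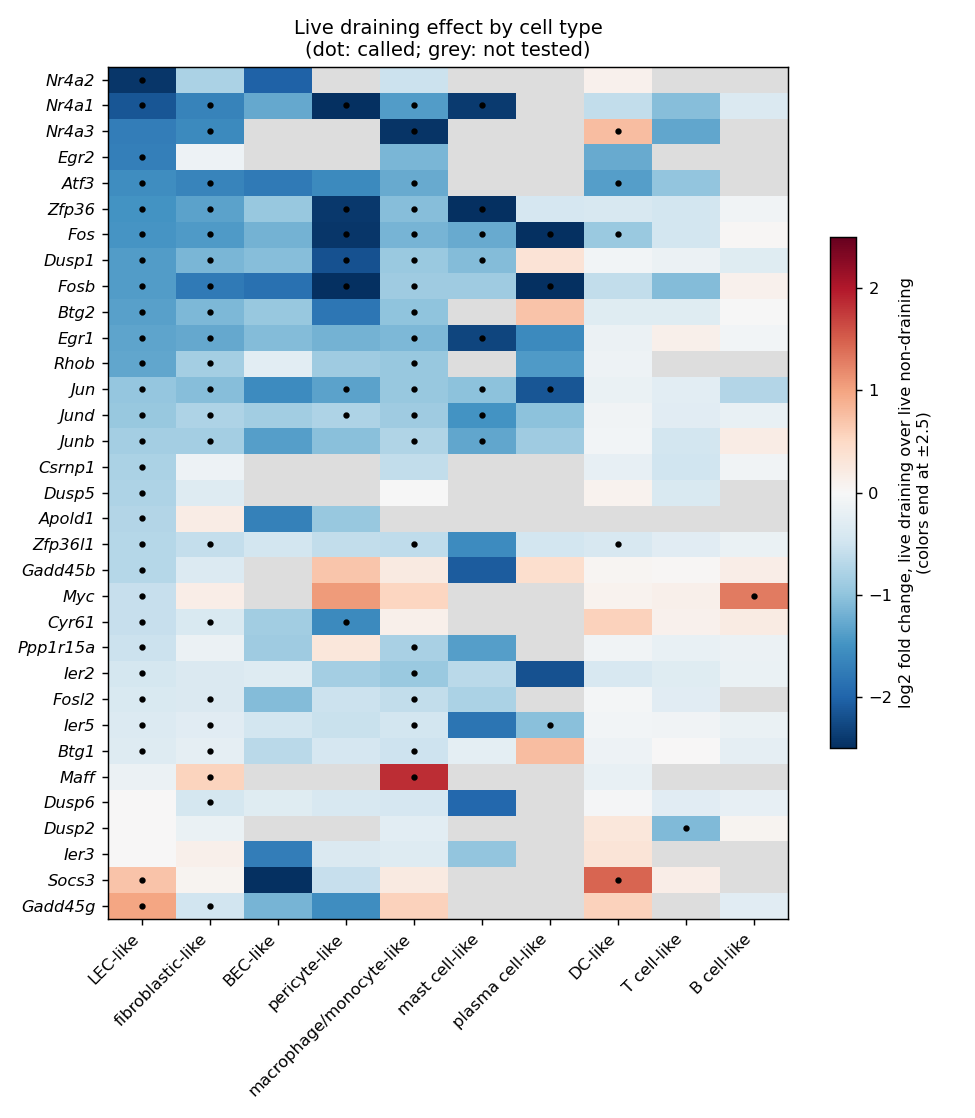
Log2 fold change of live tumor draining over non-draining nodes for 33 members (rows) in 10 cell types (columns), blue for lower and red for higher with the colours ending at -2.5 and 2.5, a dot where edgeR called the change and grey where a member was not tested. LEC-like, fibroblastic-like and macrophage/monocyte-like columns are mostly blue with dots, while the B cell-like column holds 1 dot, for Myc.

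Immune cells of the same libraries gave from 0 to 19 lower members. Macrophage/monocyte-like cells had 19 members lower and 1 higher of 32 tested in the live comparison (3.78% and 5.53% of all genes), and 10 lower without live non-draining replicate C. Fos had 413, 295 and 375 CPM in live draining and 709, 765 and 941 in live non-draining libraries, with 693 to 810 in naive nodes (log2 fold change -1.15 ± 0.17, edgeR adjusted p = 8.6e-05). The draining libraries were thus below both other groups, which overlapped each other. Against naive nodes 12 members fell in live draining nodes (4.8% of all genes) and 5 rose in live non-draining nodes (2.18%). Nr4a3 (-2.45), Nr4a1 (-1.39), Atf3 (-1.26), Egr1 (-1.12) and Zfp36 (-1.06) fell as well. Maff rose as in fibroblastic-like cells, from 4.54, 3.90 and 1.88 to 16.6, 12.1 and 12.1 CPM (1.85 ± 0.52, adjusted p = 0.024), on 148 UMIs over all libraries. With fixed tumor cells Dusp1 (0.90, adjusted p = 0.034) and Egr1 (0.81, adjusted p = 0.036) rose (1.36% of all genes higher), a count that came to 0 without fixed draining replicate A or B or fixed non-draining replicate B, to 1 without fixed non-draining replicate A and to 4 without fixed draining replicate C or live non-draining replicate C. The live effect was lower than the fixed effect for 11 members (1.93%).

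Mast cell-like cells had the highest summed level, 17619 to 19160 CPM in naive, 7698 to 10569 in live draining and 21705 to 25785 in live non-draining libraries, with 11 to 16 cells per live draining library. There 8 of 18 members fell (0.631% of genes), with Zfp36 (-2.61), Nr4a1 (-2.40) and Egr1 (-2.30) the largest. Plasma cell-like cells had 4 lower of 15 (1.3%). Among them Fos was at 71.2, 35.7 and 43.0 CPM in live draining and 509, 678 and 610 in live non-draining libraries (-3.58 ± 0.49, edgeR adjusted p = 0.0012), with 301 to 1217 in naive nodes. Pericyte-like cells, which wrap small vessels, had 8 lower of 26 (0.655%), with Fosb at -2.96, Nr4a1 at -2.88 and Fos at -2.42. Dendritic cell (DC)-like cells had 3 lower (2.91%), Atf3 (-1.38), Fos (-0.93) and Zfp36l1 (-0.39), and 2 higher (5.31%) of 32, Socs3 (1.45 ± 0.28, adjusted p = 0.0012) and Nr4a3 (0.77 ± 0.14, adjusted p = 0.00081). Genes named for these 4 cell types and for the LEC and fibroblastic subsets were chosen after their values were seen. Socs3 in DC-like cells ran from 17.1 to 24.4 in live draining and from 6.14 to 12.3 in live non-draining libraries.

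Lymphocytes gave few calls. In T cell-like cells 20 of 26 log2 fold changes in the live comparison were below 0, with a median of -0.29 against -0.02 over all genes. At an unadjusted p under 0.05, 4 members were lower and 0 higher, and DESeq2 called 0. By edgeR 1 of the 26 was called lower and 0 higher (1.27% and 3.75% of all genes). The 1 was Dusp2, a phosphatase of activated lymphocytes, at 14.1, 40.8 and 35.1 CPM in live draining and 69.8, 73.4 and 44.8 in live non-draining libraries (-1.11 ± 0.32, adjusted p = 0.036). Fos in T cell-like cells was at 256, 84.3 and 138 in live draining, 214, 150 and 301 on the live non-draining side and 118 to 192 in naive libraries, which overlapped (-0.45 ± 0.37, adjusted p = 0.55). B cell-like cells had Myc higher, 73.2, 70.8 and 48.6 against 26.1, 31.5 and 21.1 (1.30 ± 0.35, adjusted p = 0.038), as the 1 call of 22 (1.31% of genes higher, 0.726% lower). DESeq2 called 0 there, and 1 member was lower and 1 higher at an unadjusted p under 0.05. Fos in B cell-like cells was at 46.2, 52.0 and 63.1 in live draining and 85.0, 15.7 and 38.4 in live non-draining libraries (0.03 ± 0.28, adjusted p = 0.99). Natural killer (NK) cell-like cells had 0 of 7 called by edgeR (0.15% of genes lower) and 3 lower at an unadjusted p under 0.05. All 7 log2 fold changes were below 0, with a median of -0.85. The members summed to 2947 to 3638 CPM in 3 live draining libraries and to 5783 and 8825 in 2 live non-draining libraries of these cells.

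The number of cells bears on these counts. Live draining libraries held 59 to 86 T cell-like cells, and with at most 50 cells per library 17 members were called lower in LEC-like, 11 in fibroblastic-like and 1 in macrophage/monocyte-like cells. The part of the cell number in the few calls of T cell-like cells was not tested. Blood endothelial (BEC)-like cells, with 13 to 21 cells per live draining library, had 0 of 25 members called by edgeR (0.0546% of genes lower), yet all 25 log2 fold changes were below 0, with a median of -1.08. There 13 were past an unadjusted p of 0.05, and DESeq2 called 3 lower.

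**Figure D4:**
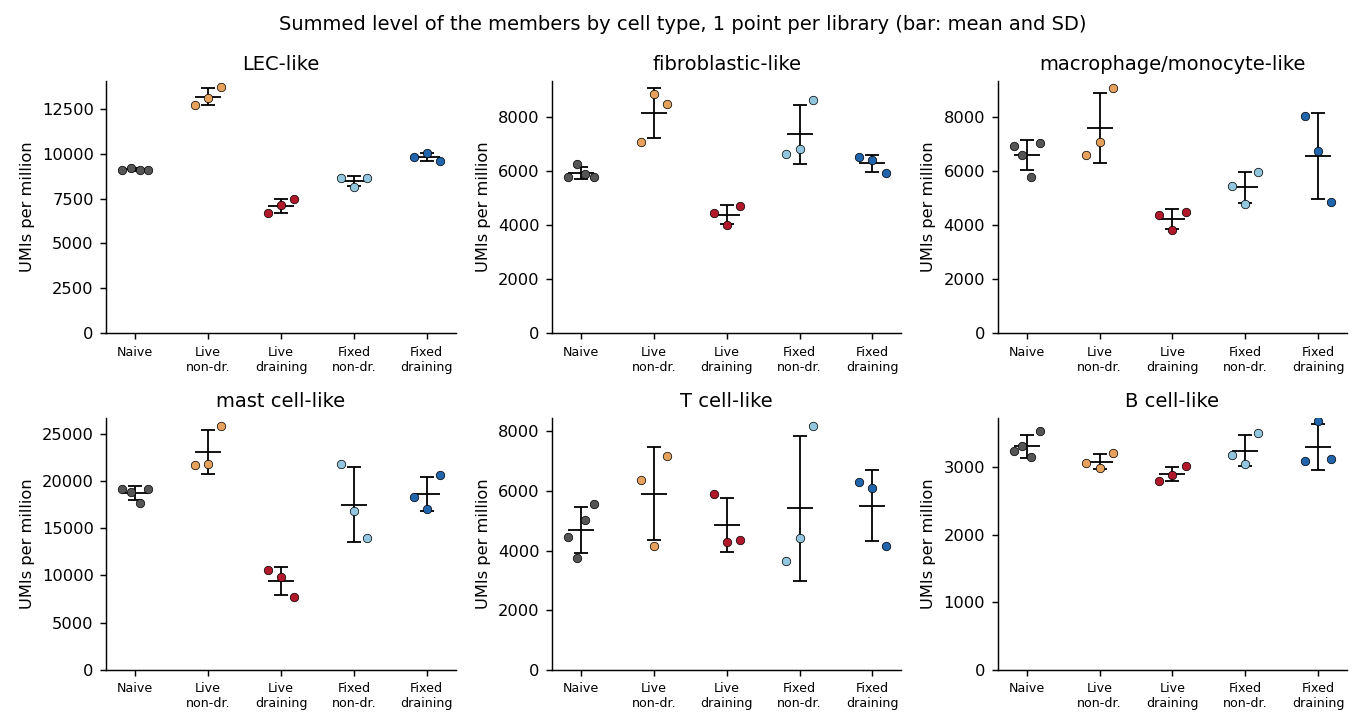
Summed level of the members in CPM on the y axes for the 5 groups on the x axes, in 6 cell types, a point per library with the mean and SD. In LEC-like and fibroblastic-like cells live tumor draining nodes lie below and live tumor non-draining nodes above naive nodes, while the T cell-like ranges of these groups overlap.

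Whether the live effect differed between cell types of the same libraries was tested in joint fits with the library as a block. Between LEC-like and T cell-like cells 6 members had a lower effect in LEC-like cells (0.495% of all genes), Egr1 (log2 difference -1.42), Dusp1 (-1.25), Btg2 (-1.08), Zfp36 (-1.07), Fos (-1.01 ± 0.28, edgeR adjusted p = 0.044) and Jund (-0.66), and limma-voom called 1. Between fibroblastic-like and T cell-like cells 3 were lower (0.679%), Egr1 (-1.37), Dusp1 (-0.96) and Btg2 (-0.86), and limma-voom called 0. Against B cell-like cells 14 members were lower in LEC-like cells (1.02%), led by Egr2 (-2.85), Myc (-1.88), Nr4a1 (-1.74), Rhob (-1.73), Fos (-1.54) and Fosb (-1.44), and 1 was higher (1.78%), Gadd45g (1.25), where limma-voom called 11 lower and 0 higher. Against macrophage/monocyte-like cells 4 were lower (0.996%), Maff (-2.05), Myc (-1.19), Gadd45b (-0.99) and Nr4a1 (-0.79), and limma-voom called 2. Most members were thus not called different between LEC-like and T cell-like or macrophage/monocyte-like cells.

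LEC-like and fibroblastic-like cells differed for 10 members. The effect was lower in LEC-like cells for 7 (3.58% of all genes), Nr4a2 (-1.62), Egr2 (-1.59), Myc (-0.74), Maff (-0.70), Nr4a1 (-0.46), Rhob (-0.44) and Ppp1r15a (-0.38), and higher for 3 (5.27%), Gadd45g (1.46), Socs3 (0.64) and Fosb (0.39). Against BEC-like cells 2 were higher in LEC-like cells (0.35%), Socs3 (4.24) and Gadd45g (2.11), and limma-voom called 1.

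The share of cells with a Fos UMI was compared after thinning each cell to 2000 UMIs and leaving out shallower cells. It came to 43.1% ± 2.76 (SD, n = 3) of LEC-like cells from live draining nodes and to 62.2% ± 0.56 on the non-draining side, a difference of -19.0 percentage points that separated the groups (exact permutation test, two-sided, p = 0.1, the smallest 3 against 3 can give). Naive LEC-like cells stood at 46.8% ± 1.60 (n = 4), and fixed draining and non-draining nodes at 50.4% ± 2.68 and 49.4% ± 2.63 (exact permutation p = 0.6). Cells with a Fos UMI held 3.89 Fos UMIs each on the live draining side and 7.33 on the other side, so both the share and the level per positive cell were lower. Without thinning the shares were 60.1% and 70.6%. For Nr4a1 the thinned shares were 6.60% and 17.3%, for Egr1 33.8% and 47.7% and for Jun 57.1% and 67.6%, all in live draining and non-draining LEC-like cells and all at an exact permutation p of 0.1. Without thinning the shares were 16.9% and 31.0% for Nr4a1 and 49.1% and 55.6% for Egr1. The unthinned share of Jun was higher on the draining side, 81.9% against 79.6%, so its direction depended on thinning.

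In floor LEC-like cells the thinned Fos share was 28.8% ± 2.20 against 67.3% ± 9.29, and ceiling LEC-like cells 59.3% ± 6.40 against 81.0% ± 6.01. Fibroblastic-like cells stood at 25.4% ± 2.30 against 44.9% ± 2.29. T cell-like cells overlapped at 17.7% ± 11.9 and 20.5% ± 3.74, and B cell-like cells, the lowest of these types, had 10.2% ± 1.69 and 6.66% ± 5.01 at the same 2000 UMIs. Free RNA was not estimated. No type here should lack Fos, so the B cell-like share does not measure free RNA. A thinned LEC-like cell held a mean of 14.2 to 14.9 member UMIs in live draining libraries, 25.0 to 28.4 in live non-draining libraries and 18.2 to 19.3 in naive libraries. The median number of members found in a cell was 6 to 7 in live draining, 8 to 9 in live non-draining and 6 in naive libraries.

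**Figure D5:**
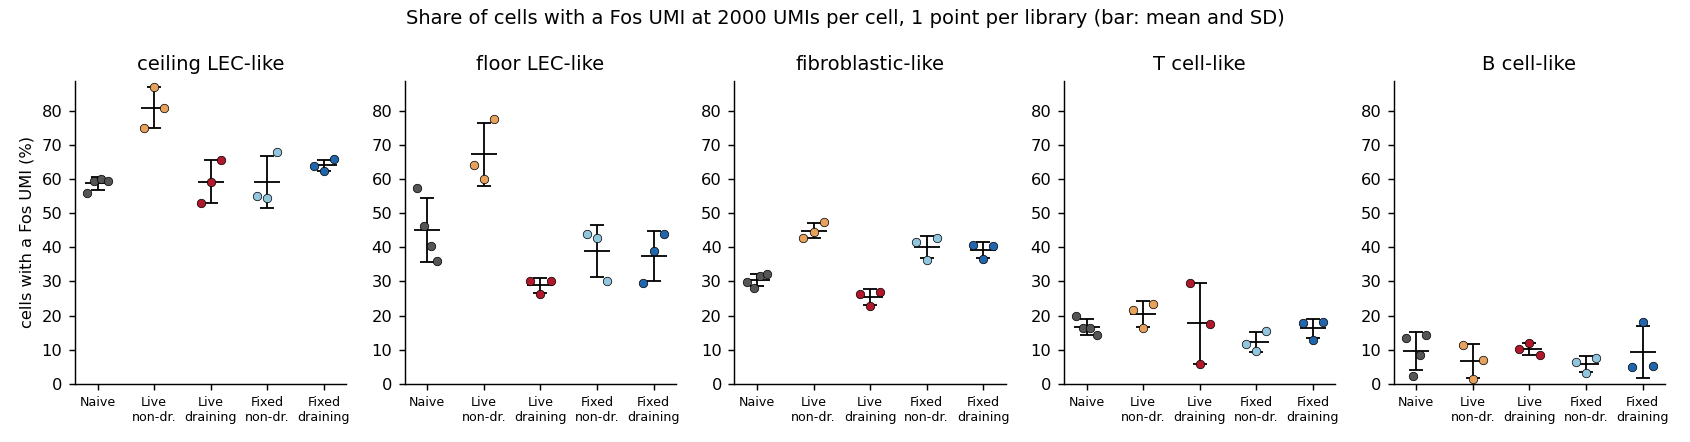
Percentage of cells with at least 1 Fos UMI after thinning to 2000 UMIs on the y axes, for the 5 groups on the x axes, in ceiling LEC-like, floor LEC-like, fibroblastic-like, T cell-like and B cell-like cells, a point per library with the mean and SD. Live tumor draining libraries lie below live tumor non-draining libraries in the stromal types and overlap them in T cell-like and B cell-like cells.

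Over the 16 libraries of LEC-like cells the members most like Fos were Btg2 (Spearman's rho 0.976), Egr1 (0.953) and Nr4a1 (0.95). Of the other 32 tested members, 23 had a rho of at least 0.5 and 10 of at least 0.8, against 11.6% and 0.532% of the genes outside the list. The 8 genes outside the members with the highest rho were Sp3 (0.938), Ints6 (0.921), Nek9 (0.918), Arl5b (0.909), 2410089E03Rik (0.903), Kdm6b (0.900), Wac (0.900) and Map3k1 (0.894). Sp3 is a transcription factor, Kdm6b a histone demethylase and Map3k1 a kinase upstream of JNK. The 16 libraries come from 5 groups and differ in depth, so these values include the differences between groups and carry no test.

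The genes around the pathway were called in both directions, and in the live comparison of LEC-like cells 15.9% of all genes were higher and 13.9% lower. There, upstream kinases and factors had 3 higher and 9 lower of 21 tested (median log2 fold change -0.09), among them Map3k1 (-0.57), Braf (-0.42) and the p38 kinase gene Mapk14 (-0.23) lower, and Map2k2 (0.33), Mapkapk2 (0.26) and Map2k1 (0.26) higher. Other MAP kinase feedback genes had 2 higher, Spred3 (1.00) and Spry4 (0.90), and 4 lower of 12 (median -0.24), among them Dusp16 (-0.55), Spry1 (-0.89) and Dusp3 (-0.26). Other bZIP genes had 5 higher and 4 lower of 21 (median -0.05), with Batf2 (1.16), Atf5 (0.46) and Nfe2l2 (0.30), the gene of the antioxidant factor NRF2, higher and Maf (-0.45) and Atf7 (-0.27) lower. All genes tested had a median of -0.01. The share of bZIP genes called in each direction, and of upstream genes called higher, lay near that of all genes, and reads as no result about those lists.

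Growth factor and protease genes known as AP-1 or serum response factor targets went the other way from the members, with 7 higher and 2 lower of 16 (median 0.35). Timp1 (1.87), an inhibitor of metalloproteases, Thbs1 (1.86) and Mmp3 (3.06) rose, and Hbegf (-0.89) and Hmox1 (-0.37) fell. Further genes known to respond to tissue dissociation had 2 higher, Id2 (2.08) and Irf1 (0.28), and 18 lower of 24 (median -0.52), with the chaperone genes Dnajb1 (-1.23), Hspa1b (-1.44) and Hsph1 (-1.24) among the lower. In the fixed comparison that list had 10 higher and 0 lower by edgeR (1.12% and 0.719% of all genes). Against naive nodes it had 3 higher and 14 lower in live draining, 6 and 0 in the contralateral, 1 and 11 in fixed draining and 1 and 17 in fixed non-draining LEC-like cells. Over all genes the shares higher and lower were 15.7% and 12.9% in live draining and 0.952% and 0.407% in the contralateral nodes. They were 1.07% and 1.3% in fixed draining and 2.17% and 2.55% in fixed non-draining nodes. By count this list was thus mostly below naive in live draining and in both fixed groups, while among the members 18 of 22 calls were lower in live draining, 2 of 13 in fixed draining and 9 of 16 in fixed non-draining nodes. The part of digestion in any of these values, and of the library code in those against naive nodes, was not tested.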

How the data were processed

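The deposited matrices hold raw UMI counts per gene and cell, which the authors made from 10x 3′ libraries with Cell Ranger 3.0.1 against mm10, per the submitters' processing notes. Counting against gene models without further filtering was kept, and reads shared by near-identical genes were not resolved here. Cells with 200 to 6000 genes and at most 30% mitochondrial UMIs were kept. Without a deposited annotation, cells were typed by at least 2 of each type's markers with a second score of at most 0.5 of the best, a rule settled after cells were seen, and no doublet caller was run. Clusters made without the members gave the same type for 95.3% of 34565 cells typed by both. Gene lists and members were chosen with earlier results of these data known.

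Counts were summed per library and cell type (at least 10 cells) and tested on all 16 libraries with edgeR 4.0.16 (R 4.3.3, TMM, filterByExpr, quasi-likelihood) with Benjamini-Hochberg adjustment over all genes tested in that type. Levels are CPM, UMIs per 1000000 of TMM-scaled library size. Cell types were compared in a joint edgeR fit blocked by library, with limma 3.58.1 voom as the alternative, and DESeq2 1.42.0 was a further alternative. A call is an adjusted p under 0.05. The scripts were tested on simulated data. The deeper libraries, with up to 48945961 UMIs, give the smaller counting error.

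Full values were given for 10 members in LEC-like cells (Fos, Fosb, Jun, Junb, Egr1, Atf3, Nr4a1, Ier2, Dusp1, Zfp36), for members called against the main direction, and elsewhere for up to 6 called members in each direction by size. For other lists up to 3 called genes in each direction by smallest p were named. Same-lettered libraries deviated with correlations from -0.0644 to 0.0996, and no label ties letters to mice, so they were not paired. Alternatives were other normalizations, no filter, thinned cells, at most 50 cells per library, at most 10% mitochondrial UMIs, cluster-based types, the ending of the library code as a term, the 12 libraries of inoculated mice alone, and leaving out each library. The code ending lines up in part with the groups, and its term was not fitted in comparisons against naive nodes.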

Additional observations from a re-analysis of the deposited data

Results flagged for a closer look

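The rule for single libraries was applied to 30 groups, each the 4 naive libraries for 1 gene and cell type, and picked 2, where chance gives about 1 in 20. Nr4a1 in naive LEC-like cells was 142 CPM in replicate B and 117 to 121 in the other naive libraries. Zfp36 was 302 in replicate C and 258 to 265 in the other naive libraries.

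Members whose live draining effect was lower than the fixed draining effect numbered 27 in LEC-like, 13 in fibroblastic-like and 11 in macrophage/monocyte-like cells, each by edgeR's test of the difference. Between cell types, the live effect was lower in LEC-like than in T cell-like cells for 6 members, in fibroblastic-like than in T cell-like cells for 3, in LEC-like than in fibroblastic-like cells for 7 (higher for 3), in LEC-like than in B cell-like cells for 14 (higher for 1) and in LEC-like than in macrophage/monocyte-like cells for 4. It was higher in LEC-like than in BEC-like cells for 2 members, Socs3 and Gadd45g.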

How the results depend on the processing

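Fos, Fosb, Jun, Junb, Egr1, Atf3, Nr4a1, Ier2, Dusp1 and Zfp36 kept a negative live log2 fold change under every alternative. This held in LEC-like, fibroblastic-like and macrophage/monocyte-like cells. With at most 50 cells per library, 1 of the 20 members lower in fibroblastic-like cells had a log2 fold change above 0. Named values of other comparisons, comparisons against naive nodes and the LEC and fibroblastic subsets were not checked in this way. The 26 members lower in LEC-like cells numbered 25 to 27 without any 1 library, 25 by DESeq2, 24 with cells thinned to 2000 UMIs and 17 with at most 50 cells per library, and all of those 17 were among the 26. The count of 20 in fibroblastic-like cells was 17 to 21 without 1 library and 11 with at most 50 cells, and that of 19 in macrophage/monocyte-like cells 10 to 20 (10 without live non-draining replicate C) and 1. The live and fixed difference gave 27 to 28, 11 to 16 and 10 to 14 without 1 library in LEC-like, fibroblastic-like and macrophage/monocyte-like cells, and 13, 1 and 0 with at most 50 cells, a setting that leaves fewer counts. The cause of the other changes was not tested.

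The 10 members higher in the fixed comparison of LEC-like cells ran from 6 to 13 without 1 library, and numbered 17 without a filter on low counts, 3 thinned and 0 with at most 50 cells. In fibroblastic-like cells 0 higher became 0 to 1 without 1 library (1 without live non-draining replicate C), 2 without a filter, 1 thinned and 1 with the replicate block. In macrophage/monocyte-like cells 2 became 0 to 4 without 1 library, 7 without a filter, 0 thinned, 0 with at most 50 cells and 1 with cluster-based types. limma-voom called 1 in place of 6 (LEC-like minus T cell-like), 0 in place of 3 (fibroblastic-like minus T cell-like), 2 in place of 4 (LEC-like minus macrophage/monocyte-like), 11 lower and 0 higher in place of 14 and 1 (LEC-like minus B cell-like) and 1 in place of 2 (LEC-like minus BEC-like). The Fos share difference of -19.0 percentage points ran from -20.0 to -17.5 without 1 library and was -10.5 without thinning.

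With the replicate letter as a block on the 12 libraries of inoculated mice, 27, 21 and 20 members were lower in the live comparison of LEC-like, fibroblastic-like and macrophage/monocyte-like cells. The letters share no stated mouse.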
